A study of Mus musculus with 8 samples.

Results

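The mitochondrial respiratory chain was described here through 41 nuclear-encoded genes, comprising 19 subunits of complex I, 4 of complex II, 6 of complex III, 11 of complex IV and the electron carrier cytochrome c. They were chosen by name, and each was read from 1 probe set annotated to its symbol alone, the one with the highest mean log2 signal over the arrays. In this way 40 of the 41 genes were measured, among 18193 genes in all. No probe set used here carried the symbol Cox7b alone, so that Cox7b was not analysed here. The genes came from 8 arrays of mouse optic nerve that had been kept in organotypic culture for 3 days. Control nerves, labelled saline, made up 4 samples, and nerves kept with 20 mM lithium chloride made up the other 4. All came from mice aged 35 to 45 days, which the labels give as C57BL/6 and the methods as C57/BL10. The labels count 6 nerves for each sample. The methods count 12 nerves from 6 mice for the transcriptomic analysis, in a sentence on numbers per experimental group, and do not give a number per sample. The nerve was cultured with the retina still attached, and no group received a transgene. Whether the samples of a group came from different animals or cultures is not given, and the p-values below therefore speak of the spread among these 8 samples, part of which may be technical.

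The respiratory chain sits in the inner mitochondrial membrane. Complex I takes electrons from NADH and complex II takes them from succinate, both pass them to ubiquinone, complex III hands them on to cytochrome c, and complex IV, cytochrome c oxidase, gives them to oxygen. Complexes I, III and IV pump protons, and ATP synthase uses the resulting gradient to make ATP. Some subunits of complex IV exist in several isoforms encoded by separate genes. Cox6a2 and Cox7a1 are the forms of heart and skeletal muscle, Cox4i2 is a form of lung that responds to oxygen and is also known from pericytes, and Cox6a1, Cox7a2 and Cox4i1 are their ubiquitous counterparts. The optic nerve is a white matter tract of axons and glia, in which mitochondria supply ATP to axons that fire at high rates.

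The tissue was checked against markers of its cells. Summed MAS5 signals, which are linear intensities, ranged over the 8 arrays from 7599 to 8916 for 11 astrocyte markers and from 11385 to 14781 for 10 oligodendrocyte markers. For 9 photoreceptor markers the sum ranged from 84.5 to 113, and 4 of them lay near background in both groups, that is under the highest signal of the poly-A control probe sets on each array. Lithium array 1 had the lowest median signal of the 8 arrays (12.3, against 14.8 to 17.5 for the others) and the largest log2 excess of 3′ over 5′ signal for Gapdh (0.53, against 0.34 to 0.43). Every array had been scaled to a trimmed mean of 100, and with 4 arrays in each group their number sets the precision.

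Most of the respiratory chain was near its control level in lithium. Of the 40 genes measured, 1 was higher in lithium at an adjusted p under 0.05, the muscle-type Cox6a2, 0 were lower and 39 did not pass (limma, Benjamini-Hochberg over all 45037 probe sets tested). Over all 18193 genes, 1.18% passed as higher and 2.05% as lower, 3.23% in all. At an unadjusted p under 0.05 there were 3 members, Cox6a2, Cox4i2 and Ndufa10, against 22% of all genes. The 4 control and 4 lithium values did not overlap for 3 members, Ndufa1, Cox4i2 and Cox6a2, against 15.1% of all genes. Of these, Ndufa1 and Cox6a2 had the higher values in lithium, as did 6.3% of all genes without overlap, and Cox4i2 the lower ones, as did 8.79%. In bulk tissue, fewer cells of a type and less RNA per cell cannot be told apart.

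Apart from the muscle-type and lung-type isoforms, 37 members had mean signals between 381 and 1900, and their fold changes, lithium over control, ran from 0.706 for Sdhd to 1.29 for Uqcrq. For 33 of these 37 the 95% interval of the fold change lay within 1.5-fold in either direction, against 63% of the 5061 genes with a mean signal of at least 200. Of those 5061 genes 3.12% passed the adjusted threshold in either direction, against 0 of the 37, and 55.8% had a higher mean signal in lithium. On the probe sets used, the 4 whose interval went past 1.5-fold were Sdhd, Uqcrq, Cycs and Cox6c, of which Sdhd alone reached beyond 2-fold. The median log2 fold change was 0.07 over the 40 members and -0.003 over all genes. By complex, the median was 0.10 for complex I, -0.09 for complex II, 0.16 for complex III and -0.06 for complex IV, and the value for complex IV turned to 0.03 when each array was centred on its own median. These medians differ by less than the spread of members within complex II or complex IV, and members of a complex are not replicates, so that no test was made between complexes. The plot of changes by complex shows the narrow band that holds all but a few members.

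**Figure D1:**
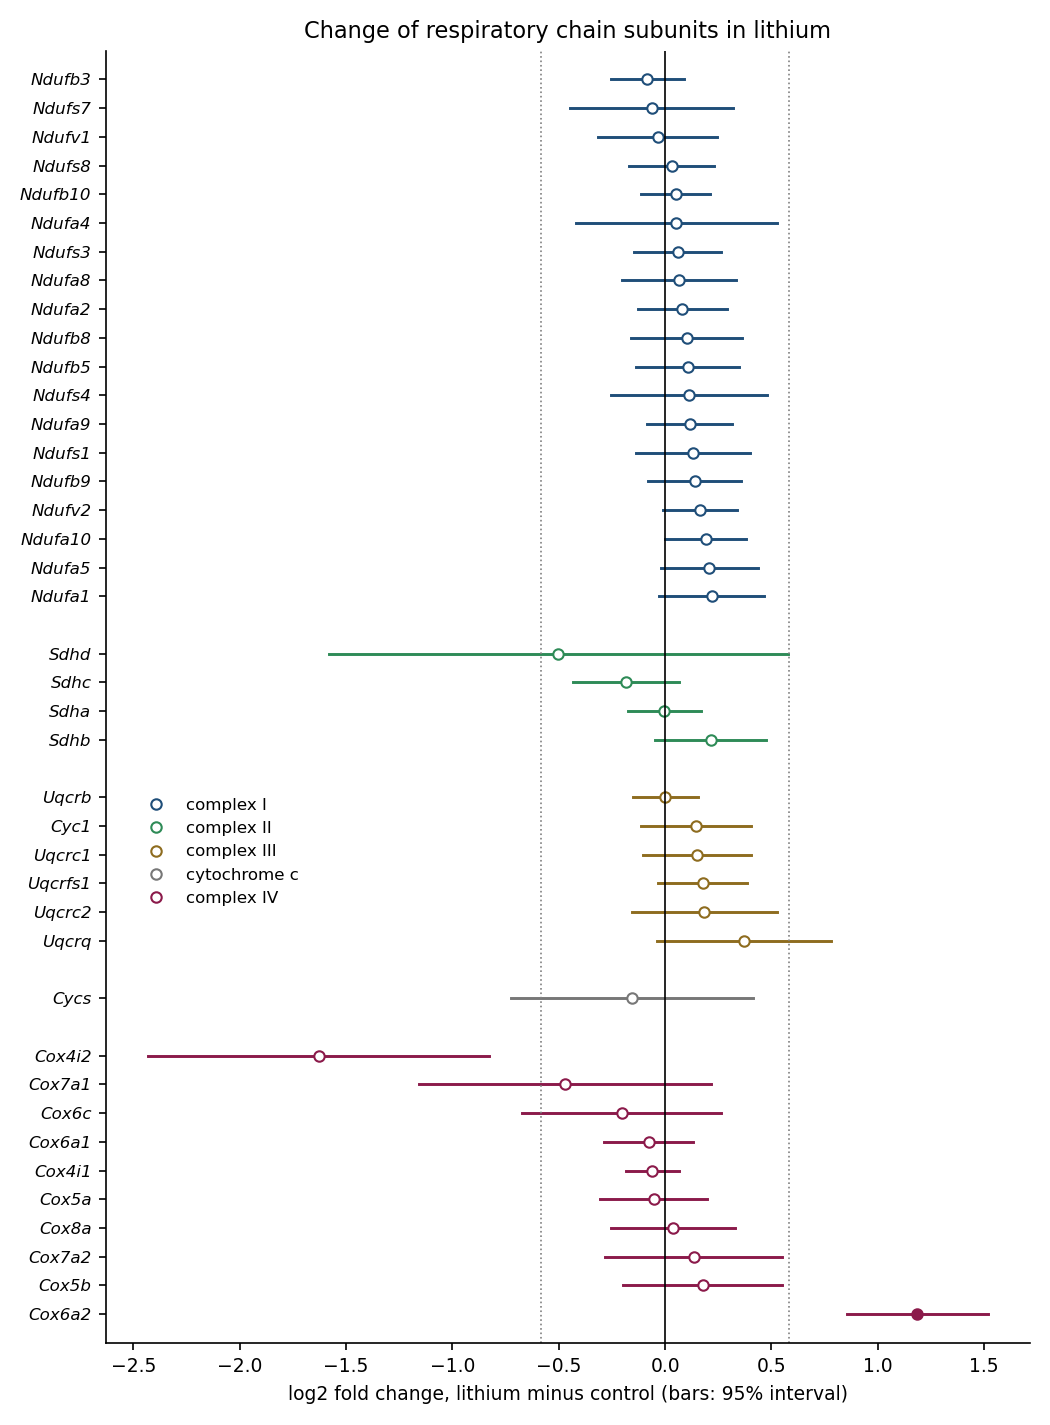
Log2 fold change, lithium minus control, of 40 respiratory chain genes grouped by complex, with bars for the 95% interval of the limma fit (4 arrays in each group), dotted lines at 1.5-fold and a filled point for a gene past the adjusted threshold. Cox6a2 at 1.19 is the only filled point, Cox4i2 at -1.63 lies farthest in the other direction, and the 19 complex I genes lie between -0.08 and 0.22.

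Complex I, the NADH dehydrogenase, had the narrowest range of changes. Log2 fold changes of its 19 genes ran from -0.08 to 0.22, and 16 of them were above 0, although none passed the test, and 1, Ndufa10, was at an unadjusted p under 0.05. The subunits that carry the flavin and the iron-sulphur clusters or form the ubiquinone site, Ndufv1, Ndufv2, Ndufs1, Ndufs3, Ndufs7 and Ndufs8, had fold changes from 0.957 to 1.12. Ndufv1, which binds the flavin that accepts electrons from NADH, was at 685 ± 59.4 in control and 671 ± 91.0 in lithium (SD, n = 4 each).

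Ndufa1, a small subunit of the membrane arm, had the largest positive change in complex I. In the order of the array numbers, it was at 436, 382, 453 and 467.71 in control and at 593, 467.77, 474 and 492 in lithium. The groups touched without overlapping, since control 4 and lithium 2 were nearly equal, and lithium 1 stood above the rest. The log2 fold change was 0.22 ± 0.10 (SE; adjusted p = 0.342). Ndufb3, another membrane arm subunit, had the largest negative change, with 806, 810.3, 829.5 and 876 in control and 832, 701, 801 and 807 in lithium. Lithium 2 was the lowest array for Ndufb3 and the groups overlapped (log2 fold change -0.08 ± 0.07, SE; adjusted p = 0.641).

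Ndufa4, first assigned to complex I and since known as a subunit of cytochrome c oxidase, differed more between arrays than between groups. It was at 747, 749, 539.8 and 495 in control and at 801, 679, 631 and 504 in lithium. Arrays 1 and 2 were higher than arrays 3 and 4 in both groups, by 0.46 on the log2 scale (adjusted p = 0.0596), whereas lithium minus control was 0.05 (adjusted p = 0.948). The labels do not say whether arrays with these numbers were handled together. Of all 40 members, Cyc1 alone differed between arrays 1 and 2 and arrays 3 and 4 at an adjusted p under 0.05 (0.26 higher on arrays 3 and 4, adjusted p = 0.0392), against 6.52% of all genes.

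Lithium array 1 lay above the other 7 arrays for many of these genes. It was the highest of the 8 for 23 of the 40 members, and for 14 of the 19 in complex I, against 15.5% of all genes and 30.6% of the genes with a mean signal of at least 200. Relative to the control mean, the median member stood 0.21 higher on the log2 scale on lithium array 1 and between -0.01 and 0.05 on lithium arrays 2 to 4. Without lithium array 1 the median log2 fold change of complex I went from 0.10 to 0.02, and that of all 40 members from 0.07 to 0.007. The median coefficient of variation of a member was 6.38% among controls and 12.5% among lithium arrays, and 8.84% in lithium without array 1. For genes with a mean signal of at least 200 it was 9.56%, 15.2% and 12.7%, also higher in lithium. With all 8 arrays, the median log2 fold change of complex I was 0.06 after quantile normalization and 0.19 after median centring. Beyond these settings, the part that the lower median signal of lithium array 1 had in these values was not tested.

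**Figure D2:**
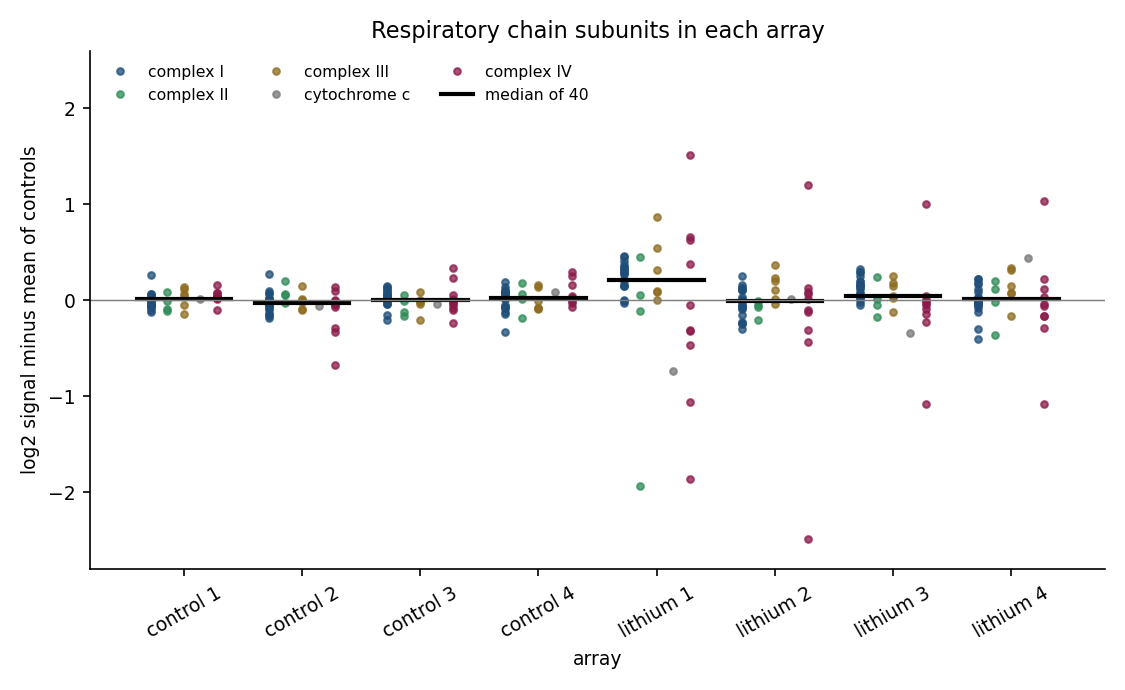
Log2 signal minus the mean of the 4 controls for each of the 40 genes on each of the 8 arrays, coloured by complex, with a black line at the median. The median is near 0 on 7 arrays and at 0.21 on lithium array 1, and the points far from 0 on all 4 lithium arrays are Cox6a2 above and Cox4i2 below.

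Complex II, succinate dehydrogenase, is the only complex whose subunits are all encoded in the nucleus and which also belongs to the citric acid cycle. None of its 4 genes passed the test or was at an unadjusted p under 0.05. Sdhb, its iron-sulphur subunit, was the highest in change, with signals of 569.6, 594, 630.3 and 637 in control and 831, 588, 719.7 and 699.8 in lithium. Lithium 1 was the highest and lithium 2 fell among the controls (log2 fold change 0.21 ± 0.11, SE; adjusted p = 0.383). Sdhd, one of the membrane anchors, was the lowest in change, with 647, 724, 640.4 and 793 in control and 182, 694, 619 and 757 in lithium. Lithium 1 alone was far below the others, so that the log2 fold change of -0.50 came with an SE of 0.46 (adjusted p = 0.661), and it was -0.02 without that array. A second probe set of Sdhd was at 492 on lithium array 1, within the control range of 440.2 to 514. Sdha, the flavoprotein, was the same in both groups to within its spread, at 1036 ± 78.8 in control and 1032 ± 38.1 in lithium.

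All 6 genes of complex III, the cytochrome bc1 complex, had log2 fold changes above 0, from 0.001 for Uqcrb to 0.37 for Uqcrq, and none passed the test or was at an unadjusted p under 0.05. Uqcrq, a small subunit near the ubiquinone site, was at 633, 586, 570.5 and 554 in control and 1067, 753, 661 and 618 in lithium. The highest control lay above the lowest lithium array, and lithium 1 was again the highest (SE 0.17; adjusted p = 0.329). Without lithium array 1 its log2 fold change was 0.21. Uqcrb, a ubiquinone-binding subunit, was at 1730.1, 1651, 1649.8 and 1671 in control and 1774, 1636, 1538.5 and 1768 in lithium, with overlapping groups (adjusted p = 1). Uqcrfs1, the Rieske iron-sulphur protein, was at 400.2 ± 28.0 in control and 453 ± 41.8 in lithium (adjusted p = 0.362). The median of complex III was 0.14 without lithium array 1, and with each array centred on its median it was 0.25.

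Cytochrome c, Cycs, carries electrons from complex III to complex IV and also triggers apoptosis when it leaves mitochondria. On the probe set used, its signal was steady in controls, at 808, 772, 781 and 855, and varied in lithium, at 481, 813, 633 and 1088. The lithium arrays lay on both sides of the controls (log2 fold change -0.16 ± 0.24, SE; adjusted p = 0.804). The log2 fold change was 0.04 without lithium array 1. Other bright probe sets of Cycs gave log2 fold changes of 0.03 and -0.01 with all arrays.

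Complex IV had the widest range of changes, with its lung-type Cox4i2 at -1.63 and its muscle-type Cox6a2 at 1.19 on the log2 scale. The interquartile range was 0.28 in complex IV and 0.31 in complex II, and tissue-type isoforms were listed for complex IV alone. Its 7 measured subunits other than the muscle-type and lung-type isoforms, Cox4i1, Cox5a, Cox5b, Cox6a1, Cox6c, Cox7a2 and Cox8a, had log2 fold changes from -0.20 to 0.18 with a median of -0.05, and none passed the test. Cox5b, which carries a zinc ion, was at 1304, 1286, 1261 and 1277 in control and 2031, 1297, 1278 and 1309.6 in lithium. It was level on 7 arrays and high on lithium 1, a pattern that 2 further probe sets of the gene shared, with 1727 and 1660.2 on that array. Another bright probe set of Cox5b had a smaller excess there, at 1051 against 847 to 958 on the other lithium arrays and 840 to 883 in control. Cox6c had the widest 95% interval of the 7 for its fold change (0.627 to 1.20), at 1012 ± 177 in control and 885 ± 207 in lithium (adjusted p = 0.670).

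The 3 pairs of tissue-type and ubiquitous isoforms were compared next, since each pair encodes versions of 1 subunit. The genes of the tissue-type forms lie on chromosome 7 (Cox6a2, chr7:128205435-128206366, and Cox7a1, chr7:30184171-30186030) and on chromosome 2 (Cox4i2, chr2:152753916-152765039) of the mouse assembly GRCm38.p6. RefSeq promoters of 300 bases around the start were at hand for 29 of the 41 genes, and Cox6a2 and Cox4i2 were not among them. The 3 below are shown because they set a muscle-type form, Cox7a1, beside its ubiquitous counterpart, Cox7a2, and beside the ubiquitous Cox6a1. Capitals mark matches, on either strand, to a site of nuclear respiratory factor 1 (NRF1), which is known to drive many respiratory chain genes, spelled GCGCA, then any base, then GCGC, and to GGGCGG, a site of Sp1.
Cox7a1 (chr7:30183921-30184220, plus strand): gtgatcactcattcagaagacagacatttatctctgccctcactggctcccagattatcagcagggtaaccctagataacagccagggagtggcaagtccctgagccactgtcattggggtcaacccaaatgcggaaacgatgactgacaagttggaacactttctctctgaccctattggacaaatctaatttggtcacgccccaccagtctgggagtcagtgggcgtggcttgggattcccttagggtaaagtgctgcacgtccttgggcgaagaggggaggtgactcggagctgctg
Cox7a2 (chr9:79759804-79760103, minus strand): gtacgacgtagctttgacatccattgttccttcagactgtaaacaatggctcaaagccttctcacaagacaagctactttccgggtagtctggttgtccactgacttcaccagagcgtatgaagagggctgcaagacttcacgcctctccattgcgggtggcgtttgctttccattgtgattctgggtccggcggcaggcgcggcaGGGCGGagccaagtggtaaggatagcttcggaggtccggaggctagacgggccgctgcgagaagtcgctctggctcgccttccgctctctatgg
Cox6a1 (chr5:115348909-115349208, minus strand): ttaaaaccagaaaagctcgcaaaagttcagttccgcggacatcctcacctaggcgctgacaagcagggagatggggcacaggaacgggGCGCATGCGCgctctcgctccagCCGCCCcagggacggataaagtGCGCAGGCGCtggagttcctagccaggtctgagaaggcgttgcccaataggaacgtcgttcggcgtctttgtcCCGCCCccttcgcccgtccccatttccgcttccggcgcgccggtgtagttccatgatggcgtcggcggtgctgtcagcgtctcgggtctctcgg

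The Cox6a1 promoter held both letter patterns, with 4 matches, the Cox7a2 promoter held 1 match to the Sp1 pattern, and the Cox7a1 window held neither. NRF1 letters were in the promoters of 6 of the 29 members (Cox6a1, Ndufa5, Ndufa8, Sdha, Sdhd and Uqcrc1), or 20.7%, and in 5.19% of the promoters of 27025 genes. Sp1 letters were in 44.8% of the members and 38.2% of all genes. The cyclic AMP response element TGACGTCA was in 10.3% of the members (Cycs, Ndufa10 and Uqcrfs1) and 2.03% of all genes, and the pattern CCGGAAGT of ETS factors such as GABPA in 6.9% and 4.31%. The muscle E-box CAGCTG was in 10.3% of the members and 18.3% of all genes, and TATAAA in 3.45% and 15.7%. All patterns were searched on both strands, and a match describes the letters only.

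Cox6a2 was higher in lithium. Subunit 6A helps to hold the oxidase dimer together and binds nucleotides that adjust its activity. Cox6a2 was at 102, 106, 81.8 and 97.4 in control and at 274.5, 221, 192 and 198 in lithium. All 4 lithium arrays were above all 4 controls, with lithium 1 the highest and with a wide gap between the highest control and the lowest lithium array. The means were 96.7 ± 10.6 and 221 ± 37.5 (SD, n = 4 each), a 2.28-fold difference (95% interval 1.81 to 2.86; log2 fold change 1.19 ± 0.14, SE; adjusted p = 0.0178). It was 1.25 within arrays 1 and 2 and 1.13 within arrays 3 and 4. The adjusted p was 0.0550 when replicate numbers entered as a block, and without control array 1, 3 or 4 it was 0.0511, 0.0519 or 0.0550, whereas the log2 fold change stayed between 1.08 and 1.25 with each array left out in turn.

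A second and dimmer probe set of Cox6a2 was at 16.9, 12.7, 7.47 and 13.9 in control and at 15.5, 29.7, 24.3 and 32.3 in lithium. There lithium 1, the highest array of the first probe set, fell among the controls, and the other 3 lithium arrays lay above them (log2 fold change 1.00, adjusted p = 0.167). The ubiquitous Cox6a1 was at 1738, 1706, 1658 and 1765 in control and at 1385, 1790.2, 1718 and 1642 in lithium, with overlapping groups and lithium 1 the lowest (log2 fold change -0.08 ± 0.09, SE; adjusted p = 0.723). The within-array log2 difference of Cox6a2 and Cox6a1 was 1.26 higher in lithium, in 4 of 4 arrays beyond the controls (two-sided exact permutation test over 70 splits, p = 0.0286, the smallest they allow, and 0.0429 adjusted over the 3 pairs).

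**Figure D3:**
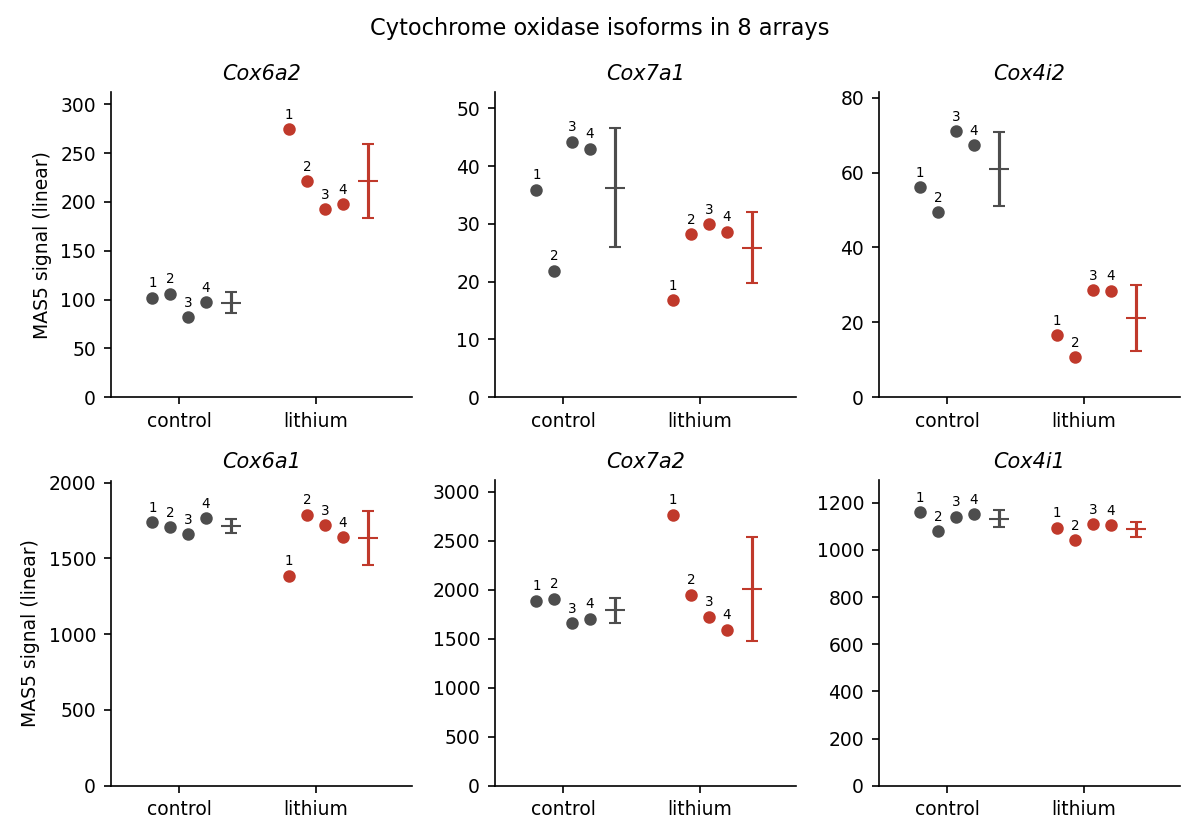
MAS5 signal on a linear scale of 3 tissue-type isoforms of complex IV (top) and their ubiquitous counterparts (bottom) on control and lithium arrays 1 to 4, with bars for mean ± SD. The groups part for Cox6a2, higher in lithium, and for Cox4i2, lower in lithium but short of the adjusted threshold, and overlap for the other 4 genes.

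Since Cox6a2 is a muscle gene, it was set beside 22 markers of skeletal muscle. Of the 22, 0 passed the test in either direction and 0 were at an unadjusted p under 0.05, and their median log2 fold change was 0.49, or 0.15 without lithium array 2. Their summed signal was between 246 and 444 in controls, at 1045 on lithium array 2 and between 256 and 303 on the other 3 lithium arrays. Lithium array 2 was the highest of the 8 for 16 of them. Tnnc2, a fast troponin, was at 148.5 on that array and between 0.92 and 10.997 on the other 7. Mylpf, a fast myosin light chain, was at 245 there and between 14.1 and 25.6 elsewhere, and Mb, myoglobin, at 80.6 and between 3.67 and 10.6. Cox6a2 was high on all 4 lithium arrays, and without lithium array 2 its log2 fold change was 1.18 (adjusted p = 0.0461). Myod1 and Myog, which specify muscle, had log2 fold changes of 0.07 and -0.51 (adjusted p = 1 and 0.589), and Neb lay near background in both groups. Of 8 markers of cardiac muscle 0 passed in either direction and 1 was at an unadjusted p under 0.05, and their summed signal was between 57.4 and 78.8 in control and between 37.6 and 68.2 in lithium. Tnnc2, Mylpf and Mb were picked after their values were seen, and the part that muscle tissue had in the Cox6a2 values was not tested.

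**Figure D4:**
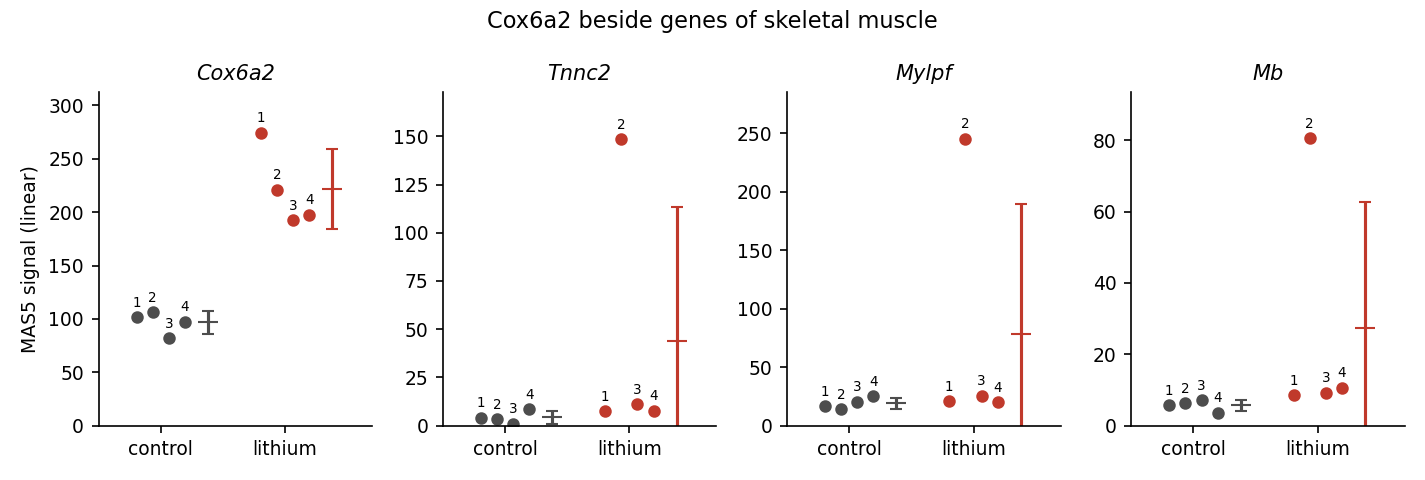
MAS5 signal on a linear scale of Cox6a2 and of 3 skeletal muscle genes on the 8 arrays, with bars for mean ± SD cut off at 0. Tnnc2, Mylpf and Mb are high on lithium array 2 alone, at 148.5, 245 and 80.6, while Cox6a2 is between 192 and 274.5 on all 4 lithium arrays.

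Cox7a1, the other muscle-type isoform, did not go with Cox6a2. Its signal was low, at 35.9, 21.9, 44.2 and 43.0 in control and 16.8, 28.2, 29.95 and 28.6 in lithium. Lithium 1 was the lowest, and lithium arrays 2 to 4 lay inside the control range (log2 fold change -0.47 ± 0.29, SE; adjusted p = 0.469). Cox7a2, its ubiquitous counterpart, was at 1889, 1908, 1661 and 1707 in control and at 2769, 1952, 1728 and 1591 in lithium, with lithium 1 high and the groups overlapping (log2 fold change 0.13 ± 0.18, SE; adjusted p = 0.761). The difference in change between Cox7a1 and Cox7a2 was -0.61 (exact permutation p = 0.257, adjusted p = 0.257).

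Cox4i2 had the largest change of any member toward lower values, although it did not pass the adjusted threshold. Subunit 4 is the binding site at which ATP slows the oxidase, and the Cox4i2 form is induced at low oxygen. Cox4i2 was at 56.2, 49.5, 71.1 and 67.3 in control and at 16.6, 10.8, 28.6 and 28.4 in lithium. Each lithium array was well below the lowest control, and within both groups arrays 1 and 2 were lower than arrays 3 and 4. The means were 61.0 ± 9.96 and 21.1 ± 8.89, with a log2 fold change of -1.63 ± 0.34 (SE; adjusted p = 0.0632) and a 95% interval of the fold change of 0.185 to 0.564. The log2 fold change was -1.98 within arrays 1 and 2 and -1.28 within arrays 3 and 4, and the adjusted p was 0.0149 with a term for these pairs of arrays and 0.0469 after quantile normalization. With 16 added to each value before log2, the change was -1.08 (adjusted p = 0.0248).

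Its ubiquitous counterpart Cox4i1 was the steadiest gene of the 6, at 1161, 1079, 1140.5 and 1153 in control and 1095, 1040.1, 1109 and 1105 in lithium. The groups overlapped (log2 fold change -0.06 ± 0.05, SE; adjusted p = 0.646). The within-array log2 difference of Cox4i2 and Cox4i1 changed by -1.57 in lithium, in 4 of 4 arrays beyond the controls (exact permutation p = 0.0286, adjusted p = 0.0429). When replicate numbers entered as a block, the exact p of both pairs that passed was 0.125, the smallest such a block allows. With arrays 1 and 2 and arrays 3 and 4 kept apart, the exact p was 0.0556 for both pairs, again the smallest allowed.

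Because Cox4i2 is known from pericytes and from the response to low oxygen, both lists are given beside it. Of 12 markers of pericytes and smooth muscle, 1 was lower and 0 were higher, against 2.05% and 1.18% of all genes. Their median log2 fold change was -0.67. For 2 of the 12 the groups did not overlap, against 15.1% of all genes, and 4 were at an unadjusted p under 0.05, against 22%. Pdgfrb, the receptor by which pericytes are recruited, was at 164, 126, 211 and 285 in control and 26.8, 37.7, 43.2 and 74.5 in lithium. No lithium array reached the lowest control (log2 fold change -2.14 ± 0.37, SE; adjusted p = 0.0401, or 0.0550 with the replicate block). The summed signal of the 12 markers ranged from 1344 to 2097 in control and from 1239 to 2112 in lithium. Of 9 endothelial markers 1 was lower, the receptor Kdr (log2 fold change -1.35, adjusted p = 0.0321, or 0.0989 with the replicate block), and their summed signal was between 441 and 726 in control and between 177 and 391.9 in lithium. Kdr was dim, and with 16 added to each value its log2 fold change was -0.52. For 3 of the 9 endothelial markers the groups did not overlap, and 3 were at an unadjusted p under 0.05. The part that vessel cells had in the Cox4i2 values was not tested.

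Of 12 genes of the response to low oxygen, 1 was lower and 1 was higher, with a median log2 fold change of -0.39. The groups did not overlap for 5 of the 12, against 15.1% of all genes, and 6 were at an unadjusted p under 0.05, against 22%. Ankrd37, a target of hypoxia-inducible factor, was lower at 87.1 ± 10.2 against 162 ± 23.5 in control (log2 fold change -0.89 ± 0.13, SE; adjusted p = 0.0305). Lonp1, the protease of the mitochondrial matrix, which can degrade Cox4i1, was higher at 326 ± 23.9 against 206 ± 22.0 (log2 fold change 0.67 ± 0.10, SE; adjusted p = 0.0279). Neither passed when each array was centred on its median (adjusted p = 0.113 for Ankrd37 and 0.0704 for Lonp1) or with the replicate block (0.0864 and 0.0619). Ndufa4l2, the counterpart of Ndufa4 that low oxygen induces, was chosen after its values were seen. It was at 242, 190.0, 199 and 221 in control and 60.8, 29.9, 97.0 and 118 in lithium, without overlap (log2 fold change -1.65 ± 0.42, SE; adjusted p = 0.0990). Vegfa, Car9 and Egln3 did not pass (log2 fold changes -0.60, -1.57 and -1.30), and Slc2a1, Hk2 and Adm were between -0.11 and -0.03.

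**Figure D5:**
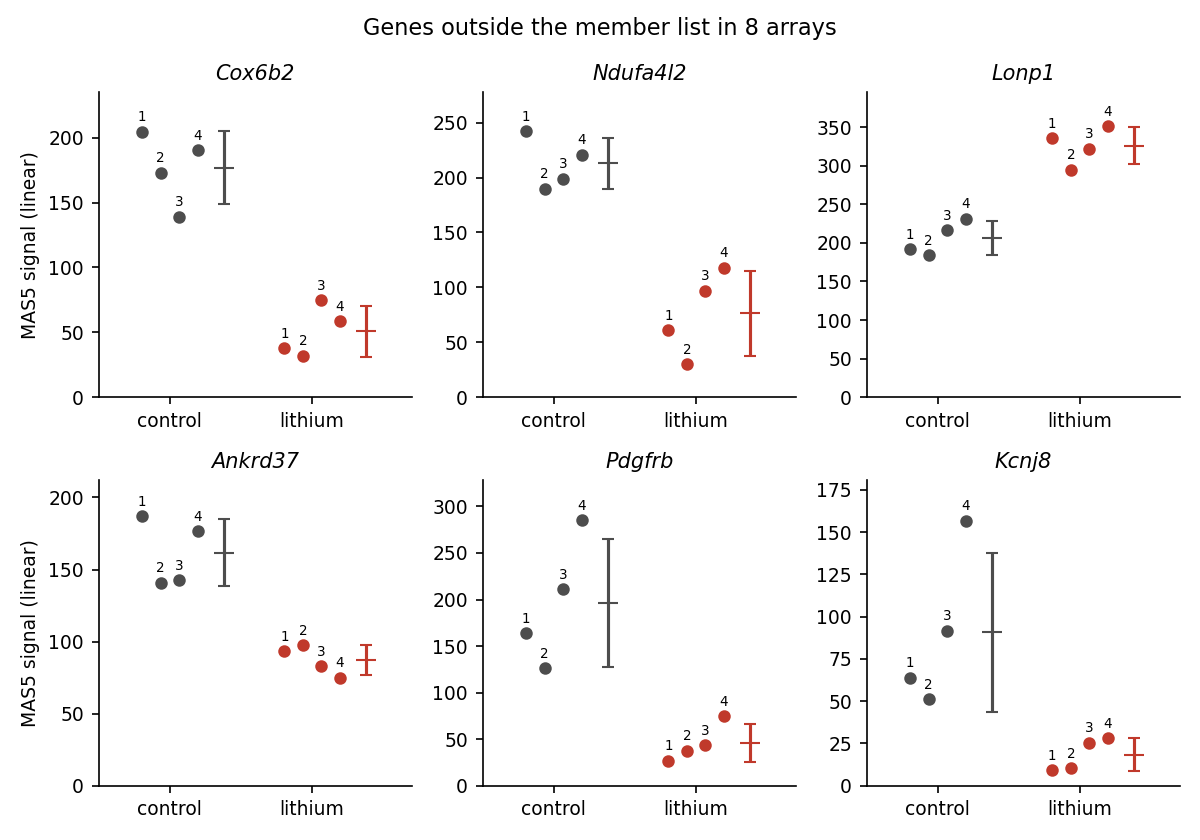
MAS5 signal on a linear scale of 6 genes outside the list of 41 on control and lithium arrays 1 to 4, with bars for mean ± SD. All 6 were chosen by their values, and groups do not overlap for any of them. Cox6b2, Ankrd37 and Pdgfrb were lower and Lonp1 was higher at an adjusted p under 0.05, while Ndufa4l2 and Kcnj8 did not pass. Groups did not overlap for 2 of 12 pericyte and smooth muscle markers, 5 of 12 low-oxygen genes and 1 of 10 further complex III and IV genes, against 15.1% of all genes.

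The rest of the oxidative machinery was also near its control level. Of 15 measured genes of complex I outside the list 0 passed in either direction with limma (median log2 fold change 0.06), and 2 were at an unadjusted p under 0.05. Of 16 genes of ATP synthase 0 passed (median 0.08), and Atpif1, which inhibits the enzyme, was the 1 at an unadjusted p under 0.05 (log2 fold change -0.41, adjusted p = 0.0862). Of 10 further genes of complexes III and IV, 1 was lower and 0 were higher. This was Cox6b2, the testis-type form of subunit 6B, which was at 205, 173, 139 and 191 in control and 37.8, 32.0, 74.95 and 58.3 in lithium. Every lithium array was below every control (log2 fold change -1.87 ± 0.29, SE; adjusted p = 0.0324, or 0.0962 with the replicate block).

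Assembly factors insert subunits, haem and copper into the complexes. Of 42 measured, 9 were at an unadjusted p under 0.05, against 22% of all genes. At the adjusted threshold 1 was lower, Coa6, which delivers copper to complex IV (73.8 ± 4.46 against 102 ± 7.39; log2 fold change -0.47 ± 0.08, SE; adjusted p = 0.0365). Coa6 did not pass after quantile normalization (0.0709) or median centring (0.345), nor with a trended and robust variance (0.0798) or the replicate block (0.0649). The calls of these genes outside the list were less stable than their direction: when 1 array was left out, Coa6 and Ankrd37 never passed, Cox6b2 passed only without lithium array 3, Lonp1 only without lithium array 2, Pdgfrb only without lithium array 4 and Kdr only without control array 1, and none of the 6 changed sign. Of 15 regulators of mitochondrial biogenesis 0 passed with limma and 3 were at an unadjusted p under 0.05, with a median of -0.05. Among them Ppargc1a, the coactivator that drives the programme, was at -0.14, Nrf1 at 0.19 and Tfam, the packaging factor of mitochondrial DNA, at 0.50 on the log2 scale (adjusted p = 0.790, 0.711 and 0.188). Of 15 genes of the citric acid cycle and pyruvate dehydrogenase 0 passed (median 0.01), and likewise 0 of 13 carriers and electron transfer proteins of the inner membrane (median -0.06), with 1 gene of each list at an unadjusted p under 0.05.

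Of the 13 subunits that mitochondrial DNA encodes, ND5 of complex I was the 1 measured here. It was at 1611, 1463, 1611 and 1517 in control and at 1093, 1388, 1349 and 1431 in lithium. All 4 lithium arrays were below the lowest control, with lithium 1 the lowest (log2 fold change -0.24 ± 0.10, SE; adjusted p = 0.257). In the same arrays the 19 listed nuclear-encoded complex I genes went from -0.08 to 0.22. The 15 nuclear-encoded complex I genes measured outside the list went from -0.35 to 0.23.

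Several probe sets were on the array for many members. The 40 members had 85 probe sets annotated to them alone, 67 of them with a mean signal of at least 100, and 20 members had at least 2 of these brighter probe sets. For 13 of the 20, all the brighter probe sets had the same sign of change. Of the 85 probe sets 2 passed the adjusted threshold, both higher in lithium. One was the Cox6a2 probe set above, and the other was a dim probe set of Uqcrq, at 1.71, 2.62, 1.58 and 2.88 in control and 7.27, 13.98, 5.93 and 5.64 in lithium. The highest poly-A control signal was between 2.13 and 5.64 on the control arrays and between 3.56 and 4.33 on the lithium arrays, so that these values lay near background in control and not far above it in lithium.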

How the data were processed

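RNA from 4 control and 4 lithium-treated optic nerve samples was hybridised to 8 one-colour Affymetrix Mouse Genome arrays. The deposited values are MAS5 intensities on a linear scale, which the authors computed in Agilent GeneSpring GX, with 1 value for each of 45101 probe sets and each array scaled to a trimmed mean of 100. The methods name a baseline transformation that these values do not show. A single gene symbol belonged to 34958 probe sets, several symbols to 932, which named no gene, and none to 9211.

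After 64 Affymetrix control probe sets were left out, intensities were floored at 1 (14.46% of values) and taken to log2. The 45037 remaining probe sets entered 1 fit of the difference between groups (limma 3.58.1, R 4.3.3, functions lmFit and eBayes), and p-values adjusted by Benjamini-Hochberg over all of them were held to a threshold of 0.05. The probe set with the highest mean stood for each of 18193 genes. Linear signals gave the means and SDs, whereas log2 values gave the fold changes. Isoform pairs were tested by a two-sided exact permutation test of the within-array log2 difference. Signals of different probe sets are not on a common scale, so that single genes were not ranked by level. The summed signals of marker lists weigh their brightest probe sets most.

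The 41 members and the 20 gene lists beside them were chosen with earlier results of these data known. Values in every array are given for members past the threshold, the isoforms and their counterparts, Cycs, and the largest rise and fall in each complex. Other members are given by summary values. Up to 2 rising and 2 falling genes past the threshold are named from each list. Members given beyond this (Ndufv1, Ndufa4, Ndufa10, Sdha, Uqcrfs1, Cyc1, Cox5b and Cox6c) and other genes (ND5, Atpif1, Ndufa4l2, Kcnj8, Tnnc2, Mylpf, Mb, Myod1, Myog, Neb, Vegfa, Car9, Egln3, Slc2a1, Hk2, Adm, Ppargc1a, Nrf1 and Tfam) were picked after their values were seen.

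Control and lithium arrays carry the numbers 1 to 4. Deviations from the group means correlated between same-numbered arrays in all 4 pairs (r = 0.130 to 0.197). The main fit held no term for the numbers, and the replicate block paired arrays by number on the evidence of the data alone. The deviations also correlated between the other arrays within 1 and 2 or within 3 and 4 (0.071 to 0.132), a range that overlapped that of the same numbers. Correlations across these were negative (-0.181 to -0.066). Alternatives were quantile normalization, median centring, log2 of the value plus 16, a level of 200 before the test, averaging over the probe sets of a gene, no _x_at probe sets, array weights, a robust and trended variance, the replicate block, a term for arrays 1 and 2 against 3 and 4, each of these pairs alone, and each array left out. On simulated data, 49 of 50 and 50 of 50 probe sets shifted by 3 and -3 were recovered, 33 of 50 and 30 of 50 shifted by 1.5 and -1.5, and 14 of 176 calls were wrong. Promoters and coordinates are from RefSeq tables of GRCm38.p6. Plots were made in Python 3.11.15 (matplotlib 3.10.9).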

Additional observations from a re-analysis of the deposited data

Results flagged for a closer look

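Among 80 groups of 4 arrays, 1 for each member in each condition, a single array stood far from the other 3 in 3 cases, where chance alone gives about 1 in 20 groups. All 3 were on lithium array 1. Sdhd was at 182 there, against 619 to 757 on the other lithium arrays. Cox5b was at 2031, against 1278 to 1309.6, and Cox7a1 was at 16.8, against 28.2 to 29.95.

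Outside the members, 34 groups of 4 arrays were examined in the same way, and 4 held an array far from the others, in each case lithium array 2. These genes were picked after their values were seen, so that the count is no measure of how often this array stood apart. Atpif1, the inhibitor of ATP synthase, was at 509.9 there, against 624 to 645.0 on the other lithium arrays, and the muscle genes Tnnc2, Mylpf and Mb were at 148.5, 245 and 80.6 on that array.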

How the results depend on the processing

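Cox6a2 was higher in lithium in all 20 alternatives, with log2 fold changes from 1.07 to 1.27 and adjusted p from 0.00169 to 0.139. No member was higher at the threshold (0 against 1) with the replicate block, within arrays 1 and 2, within arrays 3 and 4, or without control array 1, 3 or 4, so that leaving out 1 array gave 0 to 1. One member, Cox4i2, was lower (1 against 0) after quantile normalization, median centring, log2 of the value plus 16, averaging over the probe sets of a gene, a trended and robust variance, or a term for arrays 1 and 2 against 3 and 4. Cox4i2 is left out by the level of 200.

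The replicate block, which pairs arrays by number, gave 1.26 for Cox6a2 against Cox6a1 and -1.57 for Cox4i2 against Cox4i1, both at an exact p of 0.125 (adjusted p = 0.188). The term for arrays 1 and 2 against 3 and 4 left both values as they were, at an adjusted exact p of 0.0833. Within arrays 1 and 2 they were 1.37 and -1.91 (adjusted exact p = 0.500), and within arrays 3 and 4 they were 1.15 and -1.23 (adjusted exact p = 0.333). In each of these designs the exact p was the smallest allowed. The block changed no other call among the members, and over all genes it took the calls from 587 to 72 (0.396%).

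Median centring moved the median log2 fold change to 0.19 for complex I, -0.0072 for complex II, 0.25 for complex III and 0.031 for complex IV, since it moved that of all genes to 0.08. Complex II was at -0.17 within arrays 1 and 2 and 0.0097 within arrays 3 and 4, and from -0.12 to -0.023 with 1 array left out, the last without lithium array 1. Genes called over the whole array numbered 94 to 343 with 1 array left out and 1584 with the term for arrays 1 and 2 against 3 and 4. In the simulated data of this size, shifts of 1.5 on the log2 scale were recovered for 33 of 50 and 30 of 50 probe sets, so that smaller differences of single genes may have gone undetected.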

Other observations

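Some markers of other cell types in the nerve passed the adjusted threshold, as did 3.23% of all genes. Of 10 fibroblast markers 1 was lower, the collagen-binding proteoglycan Lum (49.1 ± 20.9 against 177 ± 42.8; log2 fold change -1.93, adjusted p = 0.0469). The groups did not overlap for 5 of the 10, against 15.1% of all genes, and the median log2 fold change was -1.36. At an unadjusted p under 0.05 there were 6 of the 10, against 22% of all genes. Of 9 microglia markers 1 was lower, the receptor Trem2 (log2 fold change -1.19, adjusted p = 0.0335), but the mean over its probe sets gave -0.56 (adjusted p = 0.335). For 2 of the 9 the groups did not overlap, and 2 were at an unadjusted p under 0.05, near the shares of all genes. Of 11 neuron markers 2 were higher, the tubulin Tubb3 (log2 fold change 0.92, adjusted p = 0.0297) and the neurofilament Nefm (1.43, adjusted p = 0.0374), and 1 was lower, the growth cone protein Gap43 (-1.01, adjusted p = 0.0235). For 3 of the 11 the groups did not overlap, and 3 were at an unadjusted p under 0.05. Nefm was dim, and with 16 added to each value before log2 its change was 0.51. Centred on array medians, Trem2 and Gap43 did not pass (adjusted p = 0.0560 and 0.0543). With limma, 0 of 11 astrocyte markers, 0 of 10 oligodendrocyte markers, 0 of 7 fat cell markers and 0 of 9 photoreceptor markers passed in either direction, and 1, 1, 0 and 0 were at an unadjusted p under 0.05. Of these called genes, Nefm alone passed with the replicate block (adjusted p = 0.0477). When 1 array was left out, Lum never passed, Gap43 passed without control array 2 or lithium array 2, Trem2 and Tubb3 passed only without lithium array 2 and Nefm only without lithium array 4, and none of the 5 changed sign.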
